A study of Mus musculus with 30 samples.

Results

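The 22 V genes and 12 J genes found in productive contigs of the T cell receptor beta chain, 34 genes in all, were followed across 8 tumour receptor libraries. They are every TRBV and TRBJ name given to a productive TRB contig, out of 201 V, D and J gene names in contigs of any chain. The 20130 productive TRB contigs were part of 63078 contigs. The libraries came from 3 mouse oral squamous cell carcinoma models (MOC1, MOC1E1 and MOC22), cell lines grown as tumours in C57BL/6J mice. MOC1E1 is called MOC1esc1 in part of the labels. Mice received isotype, anti-PD-1 or anti-CTLA-4 antibody by intraperitoneal injection on days 3, 6 and 9 after tumour inoculation. MOC1 and MOC1E1 have a library for each of the 3 treatments and MOC22 for isotype and anti-PD-1, so that each model and treatment has 1 library. The labels call the MOC1 and MOC1E1 receptor material tumour-infiltrating immune cells and the MOC22 material tumour-infiltrating T cells. Mouse age, antibody dose, day of harvest and the number of mice per library are not given in the sources used here.

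A beta chain is built in the thymus when 1 V, 1 D and 1 J gene of the Trb locus are joined, with bases trimmed and added at each joint. The joint is the third complementarity-determining region (CDR3), which touches the presented peptide, while the V gene alone encodes the first and second of these loops, which mostly touch the MHC molecule. J genes lie in a first cluster upstream of the constant gene Trbc1 and a second cluster upstream of Trbc2.

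A clone here is a pair of TRA and TRB CDR3 nucleotide sequences within 1 library, taken from the contig with most UMIs of each chain. Shares by clone count each clone once, and shares by cell count each cell once. The 13773 cells with both chains formed 8878 clones, with 414 to 2487 clones and 476 to 3104 cells per library. The median productive TRB contig had 6 to 11 UMIs. Between 86.8 and 99.1% of these cells had a barcode in the RNA library of the same model and treatment. Cells with a receptor carried Cd3e RNA in 97.9 to 99.9% of cases, and the macrophage gene Lyz2 in 0.56 to 14.8%, most in MOC1E1 isotype and anti-PD-1 (13.6 and 14.8%). Of 13652 barcodes, 120 occurred in more than 1 library, and 0 of these carried the same TRB CDR3 in both. More than 1 productive TRB was found in 11.4 to 16.4% of cells with a TRB in the MOC1 libraries and in 2.67 to 6.29% in the other libraries, so a receptor can be paired with the wrong chain more often in MOC1. For MOC22 the labels conflict: each receptor sample's description points to the file of the opposite treatment. The treatment in the file's own name was used, under which 96.7 and 98.2% of cells had a barcode in the RNA library of that treatment, and every MOC22 direction below rests on it.

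The CDR3 sequences that the results turn on are shown first, written 5′ to 3′. Lower-case bases follow the sequence shared by at least 70% of the distinct CDR3s of that V gene (from the left) or that J gene (from the right). Capitals mark the joint between them, which holds the D gene and added bases. The first set is the beta chain of the largest clone of 7 libraries, since these clones decide several shares by cell.
MOC1 isotype, TRBV12-1 with TRBJ1-4, 27 cells: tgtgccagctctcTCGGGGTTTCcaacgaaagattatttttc
MOC1 anti-PD-1, TRBV1 with TRBJ1-1, 194 cells: tgcagtgACAGGGAcacagaagtcttcttt
MOC1E1 isotype, TRBV19 with TRBJ2-1, 9 cells: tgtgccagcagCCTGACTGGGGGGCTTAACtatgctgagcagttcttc
MOC1E1 anti-PD-1, TRBV16 with TRBJ2-7, 52 cells: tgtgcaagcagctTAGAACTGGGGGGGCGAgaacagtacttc
MOC1E1 anti-CTLA-4, TRBV19 with TRBJ2-3, 23 cells: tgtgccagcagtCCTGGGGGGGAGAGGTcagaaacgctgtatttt
MOC22 isotype, TRBV13-3 with TRBJ1-4, 60 cells: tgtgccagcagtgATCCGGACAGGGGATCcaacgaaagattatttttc
MOC22 anti-PD-1, TRBV20 with TRBJ2-2, 96 cells: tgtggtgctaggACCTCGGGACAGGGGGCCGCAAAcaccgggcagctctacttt
These 7 beta chains used 6 V genes and, apart from TRBV19, no V gene came up more than once. In all 7 clones every cell that could be classed was a CD8 cell.

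The second set is a family of TRBV16 with TRBJ2-7 beta chains that came up in all 8 libraries, and the third a family of TRBV26 with TRBJ1-6 beta chains that did so too. The CDR3s of a family have the same V gene, J gene and length and are linked through steps of at most 2 differing bases. The most frequent members of each, and 1 member from an isotype library, are printed to show how little they differ.
TRBV16 family, 84 cells: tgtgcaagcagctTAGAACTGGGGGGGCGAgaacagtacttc
TRBV16 family, 50 cells: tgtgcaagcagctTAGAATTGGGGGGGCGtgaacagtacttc
TRBV16 family, 42 cells: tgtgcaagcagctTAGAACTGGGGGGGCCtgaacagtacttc
TRBV16 family, also 42 cells: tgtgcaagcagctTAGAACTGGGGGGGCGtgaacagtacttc
TRBV16 family, 1 cell of MOC22 isotype: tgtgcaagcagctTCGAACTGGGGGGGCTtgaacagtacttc
TRBV26 family, 13 cells: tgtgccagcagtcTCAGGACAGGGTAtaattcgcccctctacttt
TRBV26 family, 10 cells: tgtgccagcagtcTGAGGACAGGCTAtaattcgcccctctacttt
TRBV26 family, 7 cells: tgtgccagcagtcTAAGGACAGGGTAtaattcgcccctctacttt
TRBV26 family, 1 cell of MOC1 isotype: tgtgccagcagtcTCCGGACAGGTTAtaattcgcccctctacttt
The lower-case V ends are the same within each family. The J ends are too, except that of the 84-cell member, which is 1 base shorter. The differences sit in the capitals or in the base next to them.

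Which V genes the clones used came first. TRBV13-2 was the most used V gene by clone, at a mean of 9.24% ± 2.32 (SD, n = 8 libraries). It ran from 5.07% in MOC1E1 anti-CTLA-4 through a median of 9.60% to 12.4% in MOC1 isotype. TRBV13-1 followed at 8.24% ± 1.74, TRBV5 at 8.22% ± 2.25, TRBV19 at 7.55% ± 2.04 and TRBV1 at 7.40% ± 1.87. TRBV3 stood at 6.63% ± 1.73, TRBV26 at 6.06% ± 1.59 and TRBV16 at 5.88% ± 0.852. Each of these 8 genes differed from the next in the order by less than its own spread over libraries, so the order is loose. Together the 8 genes held 59.2% of clones on average, between 54.2 and 63.0% per library. The 3 TRBV13 genes, close relatives known as the Vβ8 family in the older naming, made up 19.96 to 25.3% of clones.

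Among the less used genes, TRBV2 varied most between libraries. It ran from 0.447% of clones in MOC1E1 isotype to 7.35% in MOC1 anti-CTLA-4. TRBV16 ran from 4.03 to 7.0% by clone and from 3.99 to 15.6% by cell. Of the 22 V genes, 19 had a mean clone share of at least 1% over the 8 libraries and entered the comparisons of classes, hashtags and models below. Between treatments the limit was set on the mean share of the 2 libraries compared, which left 18 to 20. The 3 below this limit, named for that reason after their values were seen, were TRBV23 at 0.812%, TRBV30 at 0.313% and TRBV21, with 1 clone in MOC22 isotype and 0 in the other 7 libraries. A count of 0 in the largest of these, MOC1 isotype with 2487 clones, allows a share of up to 0.121%.

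**Figure D1:**
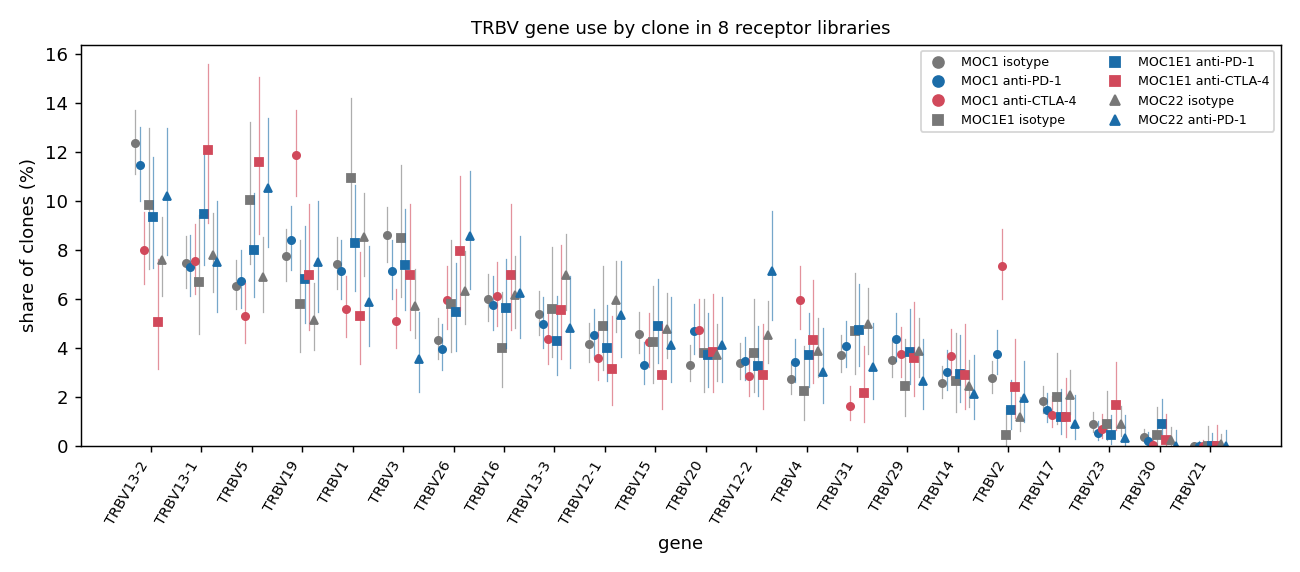
Share of clones (%, vertical axis) that used each of the 22 TRBV genes (horizontal axis, ordered by mean share) in the 8 libraries. Points are libraries, coloured by treatment and shaped by model, and lines are exact 95% binomial intervals that cover counting error only; TRBV2 and TRBV19 of MOC1 anti-CTLA-4 (7.35 and 11.9%) lie above the other libraries.

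The V genes were placed on the mouse genome with RefSeq's annotation (GRCm38.p6). It lists 35 Trbv genes on chromosome 6 between positions 40891296 and 41558371, and all 22 V genes of these libraries are among them. TRBV13-2 lies at 41121396 to 41121832, TRBV19 at 41178589 to 41179048, TRBV2 at 41047556 to 41047995 and TRBV1, the farthest from the D and J genes, at 40891296 to 40891885. TRBV31 lies on the far side of the constant genes, at 41557693 to 41558371, and is known to be joined by inversion. RefSeq annotates TRBV29 as a pseudogene, and it was nevertheless assigned to 668 productive contigs and 329 clones. The other 13 annotated genes had 0 productive contigs. They included TRBV24, which RefSeq does not mark as a pseudogene.

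Among J genes, TRBJ2-7 was used most, by 18.3% ± 2.72 of clones (SD, n = 8), with a lowest share of 14.3%, a median of 18.9% and a highest of 21.3%. TRBJ2-5 at 12.6% ± 1.68, TRBJ2-1 at 11.7% ± 1.82 and TRBJ1-1 at 11.7% ± 1.31 came next and overlapped one another. TRBJ2-4 followed at 8.93%, TRBJ2-3 at 7.95%, TRBJ1-4 at 6.46% and TRBJ1-2 at 5.96%. The least used were TRBJ2-2 at 4.87%, TRBJ1-3 at 4.57%, TRBJ1-6 at 4.0% and TRBJ1-5 at 2.96%. The lowest library of TRBJ2-7 lay below the highest libraries of TRBJ2-5 and TRBJ2-1 (15.4 and 14.99%) and above the highest of the 9 others. The second J cluster held 64.4% of clones on average, between 57.2 and 72.0%.

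**Figure D2:**
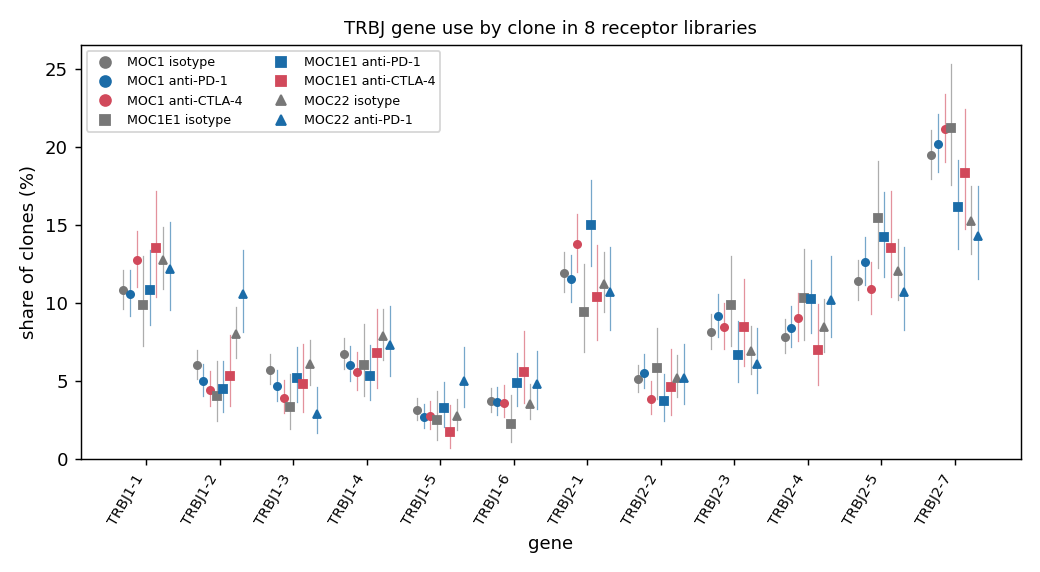
Share of clones (%, vertical axis) that used each of the 12 TRBJ genes (horizontal axis, in locus order) in the 8 libraries. Points are libraries, coloured by treatment and shaped by model, with exact 95% binomial intervals for counting error only; TRBJ2-7 lies between 14.3 and 21.3%, and TRBJ1-2 is highest in the 2 MOC22 libraries.

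V and J genes combined broadly. All 228 combinations of the 19 commoner V genes with the 12 J genes occurred in at least 1 clone. For the 57 combinations for which the product of the V and J shares gives at least 50 clones, the observed number was 0.553 to 1.60 times that product. The highest was TRBV1 with TRBJ1-1, 119 clones against a product of 74.1, and TRBV16 with TRBJ2-7 was next at 155 clones against 99.3. The lowest was TRBV26 with TRBJ2-5, 32 clones against 57.9. TRBV26 also had the lowest share of second-cluster J genes of the 19, at 47.8% of its 477 clones, while the other 18 lay between 56.3 and 70.2%. These ratios pool libraries and carry no test, and related clones are among them. For TRBV1 with TRBJ1-1, 1 beta chain alone came up in 16 clones of MOC1 anti-PD-1, 10 of MOC1 anti-CTLA-4 and 1 of MOC1 isotype. CDR3 length averaged 41.3 nucleotides, with TRBV1 shortest at 36.5 ± 1.07 (SD, n = 8 libraries) and TRBV2 longest at 43.4 ± 1.5. The TRBV1 range (34.5 to 38.0) lay below that of every other V gene tested.

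Whether V use differed between CD8 and CD4 clones could be tested, because both classes were read in each library and the 8 libraries served as replicates. CD8 clones used TRBV12-1, TRBV12-2 and TRBV29 more and TRBV1, TRBV13-2 and TRBV31 less than CD4 clones. These 6 of 19 V genes were called (31.6% of those tested). Each difference had the same sign in 8 of 8 libraries, which gives the smallest p of this design, 0.00781, and an adjusted p of 0.0247 (exact two-sided sign-flip permutation test over libraries, Benjamini-Hochberg over 19 genes). A cell was classed as CD8 with at least 1 UMI of Cd8a or Cd8b1 and none of Cd4, as CD4 the other way round, and a clone by most of its cells. There were 3413 CD8 and 2692 CD4 clones among the 8878, and the rest had no class. The part without a class differed between libraries. MOC1 isotype had 552 CD8 and 934 CD4 clones out of 2487, and MOC22 anti-PD-1 had 411 and 77 out of 559. CD8 clones made up 37.1 to 84.2% of the classed clones in a library, and shares by class cover classed clones only.

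In the following, the values of a model are in the order isotype, anti-PD-1, anti-CTLA-4, the last for MOC1 and MOC1E1. TRBV12-1 held 9.96, 7.20 and 5.61% of CD8 clones in MOC1, against 1.18, 2.65 and 1.5% of CD4 clones. In MOC1E1 it held 13.01, 5.62 and 3.42% against 0.699, 0.535 and 1.08%. In MOC22 it held 8.67 and 6.81% against 1.17 and 1.3%. The lowest CD8 value lay above the highest CD4 value, and the mean of 7.54% in CD8 clones was 5.96 times the 1.26% in CD4 clones. TRBV12-2 had a mean of 5.97% in CD8 clones (3.42 to 10.6%) against 1.12% in CD4 clones (0 to 2.36%), again without overlap. TRBV29 averaged 4.62% in CD8 and 1.70% in CD4 clones. Its classes overlapped, and in MOC1 isotype they were level, at 2.90 and 2.89%.

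TRBV13-2 had the largest share among the genes used more by CD4 clones. It held 8.15, 9.21 and 7.13% of CD8 clones in MOC1, against 12.7, 13.8 and 10.3% of CD4 clones. In MOC1E1 the values were 4.88, 7.63 and 5.13% against 14.7, 10.2 and 5.38%, and in MOC22 they were 6.63 and 6.08% against 8.98 and 22.1%. The 22.1% rests on the 77 CD4 clones of MOC22 anti-PD-1. TRBV1 averaged 4.99% in CD8 and 9.82% in CD4 clones, with the largest gaps in MOC1E1 (5.69, 3.61 and 2.14% against 16.1, 13.9 and 11.8%) and the smallest in MOC22 isotype (7.65 against 7.81%). TRBV31 averaged 2.28% against 5.30%. For all 3 genes the ranges of the classes overlapped across libraries although the sign did not change within any of them.

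Summed, TRBV12-1, TRBV12-2 and TRBV29 held 11.5 to 27.6% of CD8 clones and 1.40 to 7.30% of CD4 clones. When a class needed 2 UMIs, TRBV1 (a difference of -3.57 points, adjusted p = 0.223) and TRBV31 (-2.14 points, adjusted p = 0.0891, same permutation test) were not called. Shares add up to 100, so a gene that takes more of a class lowers the others. On counts simulated with the clone numbers of these libraries, 61.7% of genes changed 2-fold were called. When genes were changed 4-fold, 14.6% of the unchanged genes were called too. The simulated libraries shared the same V shares and the same change, so they varied by counting error only, unlike the real libraries.

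**Figure D3:**
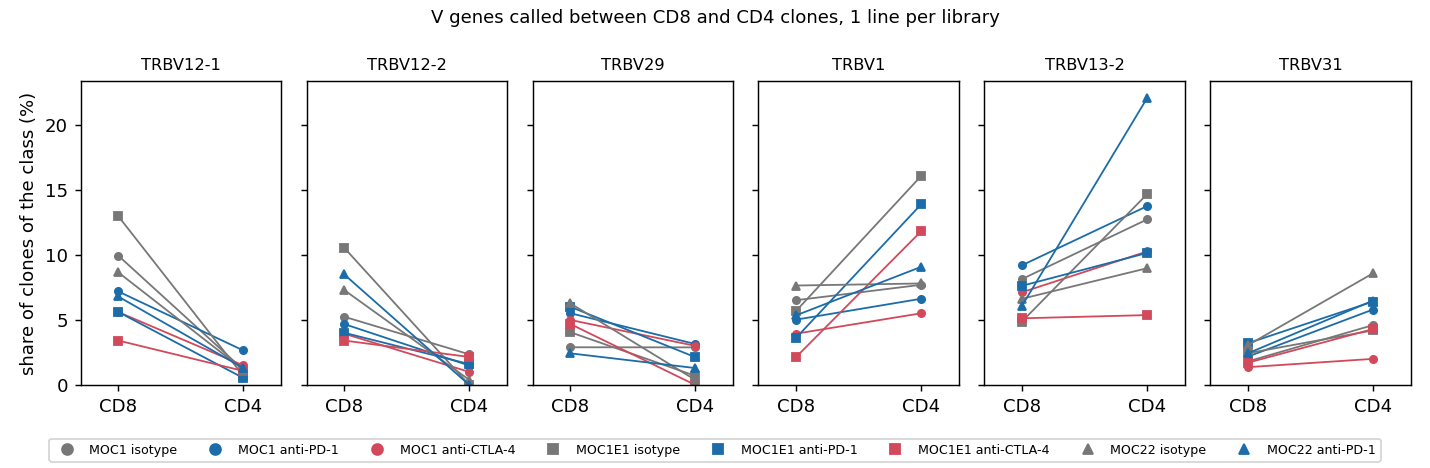
Share of CD8 clones and of CD4 clones (%, vertical axis) that used each of the 6 V genes called, 1 panel per gene and 1 line per library, coloured by treatment and shaped by model. The lines fall from CD8 to CD4 for TRBV12-1, TRBV12-2 and TRBV29 and rise for TRBV1, TRBV13-2 and TRBV31 in 8 of 8 libraries, though hardly for TRBV29 in MOC1 isotype.

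Of the J genes, 0 of 12 were called between the classes (0%) by the same test, and 2 had an unadjusted p under 0.05. TRBJ2-5 was lower in CD8 clones in 8 of 8 libraries, at 10.7 against 14.1% on average (adjusted p = 0.0938, exact sign-flip permutation test). TRBJ1-2 was higher in 6 of 8, at 6.49 against 5.00% (adjusted p = 0.219, same permutation test).

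Clones of 2 or more cells were set against clones of 1 cell in the 7 libraries with at least 30 of each, which leaves out MOC1E1 isotype. By the same exact permutation test, 0 of 19 V genes (0%) and 0 of 12 J genes (0%) were called, with 3 V genes and 0 J genes at an unadjusted p under 0.05. TRBV29 held 2.11% of expanded and 3.99% of single-cell clones and was lower in 7 of 7 libraries (adjusted p = 0.237, exact sign-flip permutation test). The other 2 were TRBV26, at 8.66 against 5.65% and higher in 6 of 7, and TRBV17, at 0.784 against 1.59% and lower in 6 of 7, with the same adjusted p. The 3 are named after their values were seen. Foxp3, the transcription factor of regulatory T cells, split CD4 clones in the 6 libraries with at least 20 clones on each side. There 0 of 19 V genes were called (0%), 0 had an unadjusted p under 0.05, and the smallest adjusted p was 0.731. TRBV1 held 13.1% of Foxp3-positive and 8.25% of Foxp3-negative CD4 clones and was higher in 4 of 6 libraries, the MOC1 and MOC1E1 ones.

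Between treatments there is 1 library on each side, so the values stand side by side without a test, with 95% Newcombe intervals for counting error. A gene is called here, as a description, when its shares differ by at least 1.5-fold. CD8 clones also made up a larger share of the classed clones in the treated library than in its isotype library in each of the 5 comparisons: 49.8 and 62.3% against 37.1% in MOC1, 57.1 and 71.6% against 46.2% in MOC1E1, and 84.2 against 69.7% in MOC22. In MOC1, Foxp3 RNA was found in 503 of 934 CD4 clones of the isotype library, in 197 of 603 of the anti-PD-1 library and in 19 of 399 of the anti-CTLA-4 library. Since V use differed between CD8 and CD4 clones, the shares within each class are given for the genes named by clone. The part that the share of CD4, Foxp3 or invariant cells plays in a difference was not tested.

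In MOC1 with anti-CTLA-4, 6 of 19 V genes were called by clone (31.6%), 3 higher and 3 lower (15.8% each). TRBV2 stood at 7.35% of 1388 clones against 2.77% of 2487 clones with isotype, a difference of 4.57 points (3.12 to 6.18). It was higher in CD8 clones (7.59 against 1.09%) and in CD4 clones (8.52 against 3.85%). TRBV19 stood at 11.9 against 7.76% (2.18 to 6.19 points higher), again in CD8 (13.8 against 8.88%) and CD4 clones (10.5 against 7.71%). TRBV4, named after its values were seen, stood at 5.98 against 2.73%. It was higher in CD4 clones (8.77 against 3.21%), while in CD8 clones the values were 2.88 and 4.35%.

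TRBV13-2 was lower with anti-CTLA-4, at 8.0 against 12.4% (a difference of -4.39 points, -6.27 to -2.41). By class the gap was smaller, 7.13 against 8.15% in CD8 and 10.3 against 12.7% in CD4 clones. TRBV3 stood at 5.12 against 8.60%, with 3.03 against 7.43% in CD8 and 8.27 against 9.96% in CD4 clones. TRBV31 stood at 1.66 against 3.74%, with 1.37 against 1.81% in CD8 and 2.01 against 4.60% in CD4 clones. Without invariant receptor pairs, 4 V genes were called in place of 6, and TRBV13-2 stood at 7.83 against 10.8%.

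By cell, 13 of 19 V genes were called in MOC1 with anti-CTLA-4 (68.4%), 6 higher and 7 lower (36.8%). TRBV19 stood at 15.9% of 2830 cells against 8.15% of 3104 and TRBV13-2 at 6.68 against 12.0%. TRBV2 stood at 7.49 against 3.25%. Without the largest clone of each library 11 were called, 5 higher and 6 lower.

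The MOC1 libraries carried 4 hashtags each, antibody-borne barcodes that the labels leave unexplained, and 95.8 to 96.6% of cells had 1 clear tag. For anti-CTLA-4 against isotype, the 4 tags did not overlap for 6 of 19 V genes (31.6%), the same 6 genes. TRBV2 ran from 6.99 to 9.29% across the 4 anti-CTLA-4 tags and from 2.51 to 3.88% across the 4 isotype tags. With only the clones found in a single tag it was 4 of 19 (21.1%). TRBV19, with a lowest anti-CTLA-4 tag of 9.04% and a highest isotype tag of 9.38%, and TRBV31, with a highest anti-CTLA-4 tag of 3.13% and a lowest isotype tag of 2.81%, then overlapped. For anti-PD-1 against isotype it was 0 of 19 (0%) with either set of clones. The tags of a library were captured and sequenced together and are not separate libraries. Clones of several cells spanned more than 1 tag in 125 of 314 cases in the anti-CTLA-4 library, in 9 of 218 in the anti-PD-1 library and in 4 of 280 in the isotype library.

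MOC1 with anti-PD-1 had 0 of 19 V genes called by clone (0%). By cell, 2 of 19 were called (10.5%), 1 higher and 1 lower (5.26% each). TRBV1 stood at 13.7% of 2704 cells against 7.02% of 3104. Of its 370 cells, 194 belonged to the TRBV1 with TRBJ1-1 clone shown above, and without the largest clone of each library TRBV1 stood at 7.01 against 7.08%. That clone was 7.17% of the library, and 177 of its cells carried hashtag 1. Its beta chain was found in 237 cells there, 60 cells of MOC1 anti-CTLA-4, 1 cell of MOC1 isotype and 0 cells of MOC1E1 and MOC22. By cell, TRBV17 stood at 1.15 against 2.13%.

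MOC1E1 had the smallest libraries, 414 to 674 clones, and wide intervals. Its libraries held 123 to 249 CD8 and 93 to 187 CD4 clones, so the lowest shares by class rest on very few clones. With anti-PD-1, 3 of 18 V genes were called by clone (16.7%). TRBV4 stood at 3.71 against 2.24%, and was nearer to level within the classes, at 3.61 against 3.25% in CD8 and 3.21 against 2.80% in CD4 clones. TRBV29 stood at 3.86 against 2.46%, with 6.02 against 4.07% in CD8 and 2.14 against 0.699% in CD4 clones. TRBV17 stood at 1.19 against 2.01%, with 1.20 against 3.25% in CD8 and 0.535 against 0.699% in CD4 clones. The intervals of all 3 differences include 0. By cell, 6 of 19 were called (31.6%), led by TRBV16 at 15.6% of 896 cells against 3.99% of 476. Without the largest clone of each library TRBV16 stood at 10.4 against 4.07%, and without its whole TRBV16 with TRBJ2-7 family it stood at 3.94% with anti-PD-1. By clone it was 5.64 against 4.03%. TRBV1 stood at 7.03 against 10.7% of cells, and at 7.46 against 10.9% without the largest clones, which is under 1.5-fold. TRBV13-3 stood at 3.46 against 5.46% and TRBV2 at 2.12 against 0.42%, which is 19 cells against 2.

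With anti-CTLA-4, MOC1E1 had 10 of 20 V genes called by clone (50%) and 12 of 19 by cell (63.2%). TRBV13-1 stood at 12.1 against 6.71% of clones (1.47 to 9.38 points higher) and at 18.0 against 6.93% of cells. By class, TRBV13-1 stood at 16.7% of 234 against 1.63% of 123 CD8 clones. It stood at 6.45% of 93 against 9.79% of 143 CD4 clones. The direction thus differed by class, but the low shares rest on few clones and carry no interval. TRBV1 stood at 5.31 against 10.96% of clones (a difference of -5.65 points, -9.34 to -1.99), with 2.14 against 5.69% in CD8 and 11.8 against 16.1% in CD4 clones. TRBV13-2 stood at 5.07 against 9.84%. For TRBV13-2 the gap lay in CD4 clones (5.38 against 14.7%), with 5.13 and 4.88% in CD8 clones. TRBV16 stood at 7.0 against 4.03% of clones, with an interval that includes 0, and at 7.26 against 4.07% of CD8 and 7.53 against 4.20% of CD4 clones. By cell TRBV26 stood at 10.7 against 5.46%, and TRBV1 and TRBV13-2 were again lower (3.6 against 10.7% and 4.27 against 9.66%).

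MOC22 with anti-PD-1 had 6 of 19 V genes called by clone (31.6%) and 15 of 18 by cell (83.3%). By clone TRBV5 stood at 10.6 against 6.89% (0.848 to 6.79 points higher) and TRBV12-2 at 7.16 against 4.53% (0.301 to 5.29). TRBV3 stood at 3.58 against 5.71% and TRBV31 at 3.22 against 4.99%, with intervals that include 0. TRBV5 was higher in CD8 clones (11.2 against 5.95%) and not in CD4 clones (6.49 against 9.38%). TRBV12-2 stood at 8.52 against 7.31% of CD8 clones, under 1.5-fold. In CD4 clones it had 0 of 77 with anti-PD-1, which allows a share of up to 3.90%, against 0.391%. TRBV3 was slightly higher in CD8 clones (3.65 against 3.40%) and lower in CD4 clones (2.60 against 8.20%). TRBV31 stood at 2.43 against 3.06% of CD8 and 6.49 against 8.59% of CD4 clones, both under 1.5-fold.

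By cell the MOC22 differences were larger. TRBV12-2 stood at 16.0% of 1635 cells against 4.5% of 1378, TRBV5 at 14.4 against 5.66% and TRBV20 at 9.36 against 3.41%. TRBV13-3 stood at 2.81 against 11.8%. Without the largest clone of each library, TRBV20 was level at 3.70 against 3.57%, since 96 of its 153 cells were the clone shown above. TRBV13-3 stood at 2.99 against 7.81%, since the 60-cell clone of the isotype library used it. The clones left out used neither TRBV12-2 nor TRBV5, which then stood at 17.0 against 4.70% and 15.3 against 5.92%. The next largest clones of the anti-PD-1 library were kept, and held 68 of its 262 TRBV12-2 cells and 52 of its 235 TRBV5 cells.

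**Figure D4:**
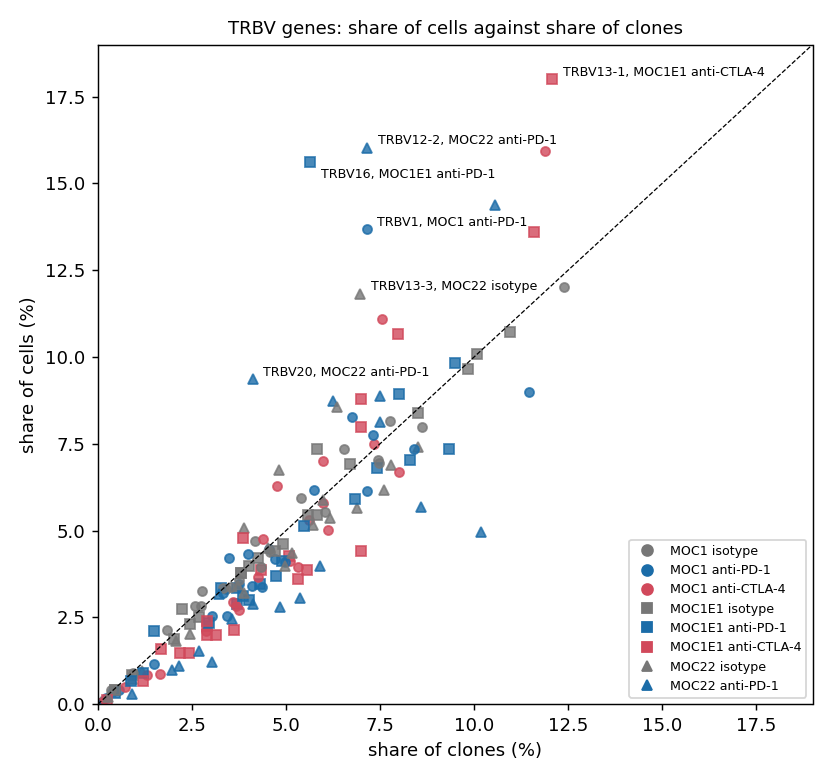
Share of cells (%, vertical axis) against share of clones (%, horizontal axis) for each TRBV gene in each of the 8 libraries, coloured by treatment and shaped by model, with the line of equal shares dashed. Labelled points use a share of cells over 4.5 points above the share of clones, such as TRBV12-2 in MOC22 anti-PD-1 (16.0% of cells, 7.16% of clones) and TRBV1 in MOC1 anti-PD-1 (13.7 and 7.14%).

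Counting cells in place of clones moved libraries apart. The distance between 2 libraries, taken as the summed absolute difference of V shares divided by 2, was 6.01 to 23.1 points by clone (median 14.5 over 28 pairs) and 10.1 to 35.4 by cell (median 25.8). It was larger by cell in 26 of the 28 pairs.

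The 1.5-fold limit was passed by 0 of 12 J genes in MOC1 with either antibody (0%). It was passed by 4 of 12 in MOC1E1 with anti-PD-1 (33.3%), by 1 of 12 with anti-CTLA-4 (8.33%) and by 2 of 12 in MOC22 (16.7%). In MOC1E1, TRBJ1-6 stood at 2.24% of isotype, 4.90% of anti-PD-1 and 5.56% of anti-CTLA-4 clones. TRBJ2-1 stood there at 14.99% with anti-PD-1 against 9.40% (1.64 to 9.33 points higher). In MOC22, TRBJ1-3 stood at 2.86 against 6.07% and TRBJ1-5 at 5.01 against 2.72%. By cell, 3 of 12 J genes were called in MOC1 with each antibody and in MOC1E1 with anti-PD-1 (25%). In MOC1E1 with anti-CTLA-4 and in MOC22 it was 5 of 12 (41.7%). The large TRBV1 clone weighed on TRBJ1-1 in MOC1 with anti-PD-1, which stood at 16.9 against 10.9% of cells and at 10.5 against 10.98% without the largest clones.

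Across the 3 models, 6 of 19 V genes differed in the same direction between anti-PD-1 and isotype by clone (31.6%). TRBV2 was higher by 0.99, 1.04 and 0.79 points and TRBV19 by 0.66, 1.01 and 2.35 points in MOC1, MOC1E1 and MOC22. TRBV1, TRBV3, TRBV13-3 and TRBV17 were lower in all 3. With 3 pairs no two-sided p under 0.25 can be reached. For anti-CTLA-4, a comparison added after the values were seen, 18 of 19 V genes (94.7%) moved the same way in MOC1 and MOC1E1, 9 higher and 9 lower. TRBV5 was the exception (-1.22 and 1.53 points). Within CD8 clones it was 14 of 19 and within CD4 clones 12 of 19. Of the 3 genes used more by CD8 clones, TRBV12-1 and TRBV12-2 were lower in both models and TRBV29 was higher. The genes used more by CD4 clones, TRBV1, TRBV13-2 and TRBV31, were all lower in both models. TRBV2, TRBV19 and TRBV20 were higher in both models in all clones, in CD8 clones and in CD4 clones. Of the J genes, 1 of 12 (8.33%) moved the same way in all 3 models with anti-PD-1, TRBJ1-4, which was lower. With anti-CTLA-4, 5 of 12 (41.7%) did so in both models.

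Between models, ranges over libraries that do not overlap were counted, since the libraries of a model differ in treatment. Ranges were apart for 3 of 19 V genes between MOC1 and MOC1E1 (15.8%), 8 of 19 between MOC1 and MOC22 (42.1%) and 4 of 19 between MOC1E1 and MOC22 (21.1%). TRBV2 and TRBV19 were higher in MOC1 than in both other models: TRBV2 ran from 2.77 to 7.35% in MOC1, from 0.447 to 2.42% in MOC1E1 and from 1.18 to 1.97% in MOC22. TRBV5 was lower in MOC1 (5.33 to 6.76%) than in MOC1E1 (8.01 to 11.6%) and MOC22 (6.89 to 10.6%). TRBV12-1 (5.37 to 5.98%) and TRBV12-2 (4.53 to 7.16%) were higher in MOC22 than in every library of the other models. MOC22 also had the highest share of CD8 clones among the classed clones of the isotype libraries. Within CD8 clones, TRBV12-1 was higher in the MOC1 and MOC1E1 isotype libraries than in both MOC22 libraries, at the values given above. The part that class plays in the differences between models was not tested. Among J genes the counts were 1 of 12 (8.33%), 5 of 12 (41.7%) and 4 of 12 (33.3%). TRBJ1-2 ran from 7.98 to 10.6% in MOC22 against 4.03 to 5.99% in the other 6 libraries, and TRBJ2-7 from 14.3 to 15.2% against 16.2 to 21.3%. With 2 and 3 libraries of different treatments, model and library cannot be told apart.

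The same beta chain was seldom found in more than 1 library. Of 7958 distinct TRB CDR3s with their V and J gene, 93 occurred in at least 2 libraries, 13 in at least 3 and 1 in 5. Whole clones, with the same TRA and TRB nucleotides, were shared by 23 of 8853, of which 14 were shared within 1 model and 9 between 2 models. The largest of the second kind used TRBV16 with TRBJ2-7. One had 25 cells in MOC1 anti-CTLA-4 and 4 in MOC1E1 anti-PD-1, and another had 31 cells in MOC22 anti-PD-1 and 1 in MOC1 isotype.

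Allowing CDR3s to differ by up to 2 bases gave 519 families of related beta chains, 106 of them in at least 3 libraries and 2 in all 8. These families were found by looking, so their values are a description. The TRBV16 with TRBJ2-7 family, 42 nucleotides long, had 19 CDR3s in 54 clones and 333 cells, of which 303 were CD8 cells and 0 CD4 cells. It had 2, 2 and 1 cells in the isotype libraries of MOC1, MOC1E1 and MOC22. With anti-PD-1 it had 59, 109 and 92 cells in the same models, and with anti-CTLA-4 it had 44 in MOC1 and 24 in MOC1E1. It held 0.0644, 0.42 and 0.0726% of the cells of the isotype libraries. The shares were 2.18, 12.2 and 5.63% in the anti-PD-1 libraries, and 1.55 and 3.20% in the anti-CTLA-4 libraries. By share of cells the treated libraries did not overlap the isotype libraries, though each isotype share rests on 1 or 2 cells. How many of the 519 families did the same was not counted. Among CD8 cells the family had 1 of 728, 2 of 136 and 1 of 836 in the isotype libraries of MOC1, MOC1E1 and MOC22. With anti-PD-1 it had 51 of 1277, 103 of 422 and 87 of 1457, and with anti-CTLA-4 39 of 1759 and 19 of 509. Cells of a clone are not independent. By clone the family had 2, 2 and 1 in the isotype libraries, 11, 8 and 11 with anti-PD-1, and 15 and 4 with anti-CTLA-4. In MOC1E1 anti-PD-1, 2 clones held 52 and 21 of the 109 cells.

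Most of this family was paired with the same alpha J gene: TRAJ7 was used by 107 of 109 cells in MOC1E1 anti-PD-1, 84 of 92 in MOC22 anti-PD-1 and 52 of 59 in MOC1 anti-PD-1. It made up 77.9% of all TRBV16 cells in MOC1E1 anti-PD-1 and 64.3% in MOC22 anti-PD-1, against 1.16 to 10.5% in the isotype libraries. In MOC1 the cells of this family were spread over 2 of the 4 hashtags in the isotype library, 3 in the anti-PD-1 library and 4 in the anti-CTLA-4 library. Hashtag 1 held 49 of the anti-PD-1 cells.

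The TRBV26 with TRBJ1-6 family, 45 nucleotides long, was smaller, with 20 CDR3s in 34 clones and 66 cells, of which 57 were CD8 and 0 CD4 cells. It had 1 cell in each of the 3 isotype libraries. With anti-PD-1 it had 16, 9 and 22 cells in MOC1, MOC1E1 and MOC22, or 0.592, 1.00 and 1.35% of cells. With anti-CTLA-4 it had 14 and 2 cells. The family had 1 clone in each isotype library, 8, 6 and 8 clones with anti-PD-1 and 7 and 2 with anti-CTLA-4. It also made up 23.7% of TRBV26 cells in MOC22 anti-PD-1. Isotype shares were 0.0322 to 0.21%, so MOC1E1 anti-CTLA-4 at 0.267% was barely above MOC1E1 isotype. A TRBV13-2 with TRBJ2-5 family occurred in 7 libraries with 24 cells, 15 of them classed as CD4 and 1 as CD8. MOC1 anti-CTLA-4 held 16 of the cells, in 2 clones, and 12 of the CD4 cells. The other CD4 cells were 2 in MOC1 isotype and 1 in MOC1E1 isotype.

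**Figure D5:**
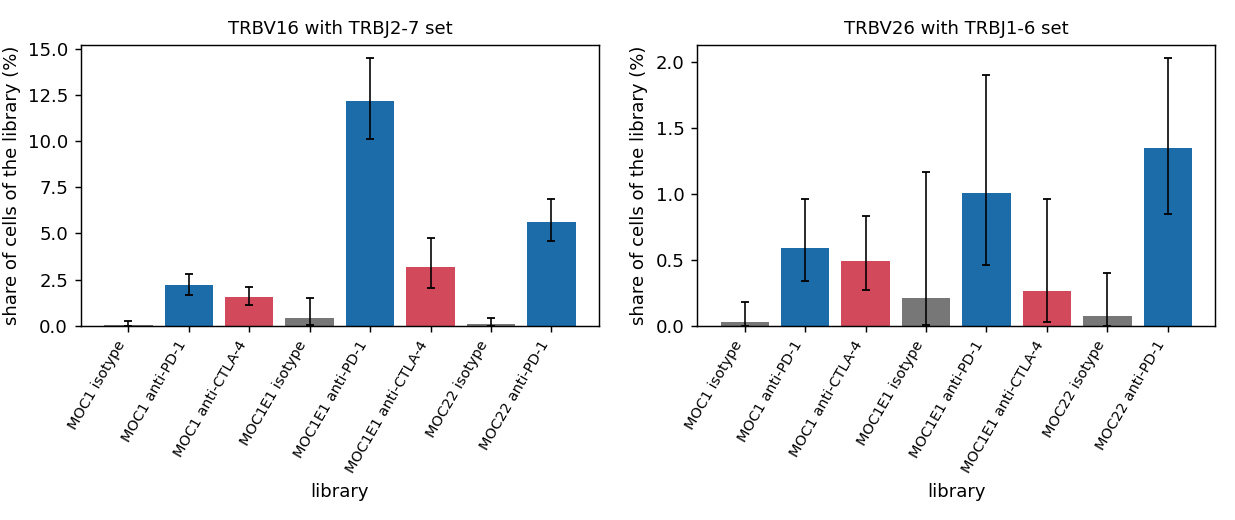
Share of the cells of each library (%, vertical axis) that carry a beta chain of the TRBV16 with TRBJ2-7 family (left) or the TRBV26 with TRBJ1-6 family (right), for the 8 libraries on the horizontal axis. Bars are shares, coloured by treatment, and error bars are exact 95% binomial intervals for counting error. The intervals treat cells as independent, although cells of a clone are not. The TRBV16 bars reach 12.2% in MOC1E1 anti-PD-1 and lie at or below 0.42% in the isotype libraries.

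Invariant natural killer T cells pair the alpha chain TRAV11 with TRAJ18 and are known to use few V beta genes. This alpha chain was found in 164 cells, 92 of them in MOC1 isotype, 36 in MOC1 anti-PD-1 and 0 to 10 in each of the other 6 libraries. TRBV13-2 was used by 78 of the 164 (47.6%), and TRBV13-1, TRBV13-2, TRBV13-3, TRBV29 or TRBV1 by 149 (90.9%, exact 95% interval 85.4 to 94.8%). Each such cell was a clone of its own. Without invariant pairs, TRBV13-2 in MOC1 isotype stood at 10.8% of clones in place of 12.4%, and in MOC1E1 isotype 8.31% in place of 9.84%. The invariant alpha chain of mucosal-associated invariant T cells, TRAV1 with TRAJ33, was found in 31 cells.

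The RNA libraries, made from the same cells, give a further reading of the V gene. The Trbv gene with most UMIs was the receptor's V gene in 12741 of 13037 cells (97.7%), between 96.3 and 98.5% per library. Pooled over libraries, cells carried at least 1 UMI of their own V gene in 93.6 to 100% of cases, lowest for TRBV5. In the MOC1E1 libraries it was 80.5, 79.7 and 75.5% for TRBV5, and in the other 5 libraries at least 94.3%. In cells that used another V gene the pooled share with a UMI was 0.174 to 7.44%, except for Trbv13-2, at 17.2% of 12291 cells. The constant gene differed with the J cluster. Trbc1 was 49.9% of Trbc1 and Trbc2 UMIs in cells with a first-cluster J gene (37.2 to 71.5% over libraries). In cells with a second-cluster J gene it was 19.1% (13.4 to 27.0%). First-cluster cells still had more Trbc2 than Trbc1 UMIs in the MOC1 and MOC22 libraries, with Trbc1 at 37.2 to 45.5%. In the MOC1E1 libraries Trbc1 was 53.5 to 71.5%. The receptor tables themselves name TRBC1 for 19988 contigs and TRBC2 for 0, so the constant gene cannot be taken from them.

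Other genes of the receptor and of its assembly were read in cells with a receptor. The signalling chains Cd3e, Cd3g, Cd3d and Cd247 had median levels over libraries of 1380, 1348, 1152 and 259 CPM (UMIs scaled to a common total), and the constant genes Trac, Trbc2 and Trbc1 of 390, 336 and 150. The recombinase genes Rag1 and Rag2, which cut the locus, had 0 UMIs in the 3 libraries whose tables list them. Dntt, which adds bases at the joints, had 24 UMIs in all, and Ptcra, the partner of a new beta chain in the thymus, had 2. The delta constant gene Trdc had 188 UMIs, with 0.187 to 1.61% of cells positive per library.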

How the data were processed

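Receptor contigs of 8 tumour libraries were analysed with the RNA counts of the same cells. The deposited tables hold UMI counts per contig and per gene and cell, made by the authors. Cell Ranger 3.0.2, Trimmomatic 0.36 and kallisto 0.46.0 are listed in the submitters' processing notes, without saying which data each served. They list builds mm10 and GRCh38. What the V and J names were taken from was not stated in the sources used here. For MOC22, treatment was taken from the name of the receptor table, against the sample descriptions.

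In each cell the productive TRA and TRB contigs with most UMIs were kept, and cells with the same pair of CDR3 nucleotide sequences in a library formed a clone. V and J use was counted over clones and over cells in Python 3.11.15 (pandas 2.3.3, scipy 1.17.1, numpy 2.4.6; plots with matplotlib 3.10.9). V genes needed a mean share of 1% to be compared, over the 8 libraries or, between treatments, over the 2 libraries compared. With 1 library per model and treatment, treatments were compared without a test, by a 1.5-fold limit with Newcombe intervals. Shares have exact Clopper-Pearson 95% intervals, and all intervals and the limits for a count of 0 (3 counts) cover counting error only. Classes of clones were compared over libraries with an exact two-sided sign-flip permutation test, Benjamini-Hochberg adjusted over the genes tested at 0.05, and a library needed 30 clones of each class (20 for Foxp3). Libraries were not stated to be separate groups of mice, so these p-values measure the spread between libraries. The test was tried on simulated data. A hashtag was given to a cell with at least 10 UMIs of it and 3 times those of the next.

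The genes named are the 8 most used V genes, all J genes, genes called over libraries, up to 4 called V genes per treatment comparison with the largest difference, the V and J genes of the largest clone of each library, V genes with under 5 clones, and a list of receptor genes. The largest clone of 1 library, and 1 share by cell that rests on it, are not reported here. The members and lists were chosen with earlier results of these data known. Alternatives were clones defined by TRB alone, cells with exactly 1 TRA and 1 TRB, no filter on the mean share, barcodes of the RNA library alone, log2 shares with 0.5 clones added, a class from 2 UMIs, leaving out the largest clone or 1 library, and, added after seeing the data, CD8 or CD4 clones alone, clones without invariant pairs and clones within 1 hashtag.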

Additional observations from a re-analysis of the deposited data

Results flagged for a closer look

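In 7 cases 1 library stood apart from the others in a difference between classes of clones, where chance sets about 1 in 20 groups apart. Each of the 2 comparisons named here tested 19 V genes and 12 J genes, so several such cases would come up by chance. In the difference of CD8 minus CD4 clones, TRBV13-3 was at -3.07 points in MOC1E1 anti-PD-1, with the other 7 libraries above 0. TRBV15 was at 2.77 points in MOC1E1 anti-CTLA-4 and TRBJ1-2 at 7.21 points in MOC22 anti-PD-1. In the difference of expanded minus single-cell clones, MOC22 isotype stood apart for TRBV13-3 at 8.23 points, for TRBV15 at 5.33 points and for TRBJ2-2 at 4.94 points. TRBV12-2 was at 3.87 points in MOC22 anti-PD-1. The 3 values of MOC22 isotype rest on 61 expanded clones.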

How the results depend on the processing

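No paired analysis was possible between treatments, because each model and treatment has 1 receptor library, all numbered 1, so that groups share fewer than 2 numbers; classes of clones were compared within each library. Of the counts of called genes, 148 alternatives gave a value within 1.5 times the reported one and 16 did not. In MOC1 with anti-PD-1, 0 called V genes by clone became 2 without the filter on the mean share, 4 in CD8 clones and 4 in CD4 clones, and 2 by cell became 4 without the filter and 1 without the largest clones. In MOC1E1 with anti-PD-1, 3 by clone became 0 with clones by TRB alone, 6 without the filter, 11 in CD8 clones and 6 in CD4 clones, and 6 by cell became 2 with TRB alone. In MOC1E1 with anti-CTLA-4, 10 became 6 with TRB alone, and in MOC22 6 became 2 in cells with exactly 1 TRA and 1 TRB. Between models, 3 V genes became 5 in CD4 clones (MOC1 and MOC1E1), and 4 became 2 with TRB alone and 1 in CD8 clones (MOC1E1 and MOC22). For CD8 against CD4 clones, 0 J genes became 2 with TRB alone. The splits by class hold fewer clones, and the cause of these changes was not tested.

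Each alternative was tried on up to 4 V genes per treatment comparison, and the direction turned for 7 differences. TRBV1 by cell in MOC1 with anti-PD-1 was -0.0729 points without the largest clones. TRBV29 in MOC1E1 with anti-PD-1 was -0.00638 with TRB alone. In MOC1E1 with anti-CTLA-4, TRBV13-1 was -3.34 in CD4 clones and TRBV13-2 0.25 in CD8 clones. In MOC22, TRBV5 was -2.88 and TRBV12-2 -0.391 in CD4 clones, and TRBV3 0.248 in CD8 clones. Outside these, TRBV4 in CD8 clones of MOC1 with anti-CTLA-4 and TRBJ1-1 by cell in MOC1 with anti-PD-1 without the largest clones also turned, at the values given above.

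Leaving out 1 library at a time gave 6 to 7 called V genes between CD8 and CD4 clones. Their adjusted p lay between 0.0424 and 0.0495 (exact permutation test). Genes with the same sign in every library reach the smallest possible p whichever library is left out. The outcome was therefore fixed for the called genes and does not show how stable the calls are. The J, expanded and Foxp3 comparisons gave 0 called genes, though for Foxp3 too few libraries then remained for any call. Over 16 settings, the reported one included, the adjusted p was 0.0212 to 0.0495 for TRBV12-1, TRBV12-2 and TRBV13-2 (same permutation test). It was 0.0247 to 0.0495 for TRBV29, 0.0212 to 0.223 for TRBV1 and 0.0212 to 0.0891 for TRBV31. With 447 and 674 clones in MOC1E1 isotype and anti-PD-1, the intervals exclude 0 for 0 of 18 V genes, so their differences were not detectable at this depth.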

Other observations

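Among TRB contigs that cannot make a protein, the same genes were counted in other proportions. Of 1175 non-productive TRB contigs with a V and a J gene, TRBV23 made up 4.60% (exact 95% interval 3.47 to 5.95%), against 0.775% of productive contigs. TRBV12-1 stood at 8.51 against 3.91%, TRBV4 at 8.43 against 3.62% and TRBV31 at 7.66 against 3.03%. TRBV26 stood lower, at 1.36 against 6.18%, and TRBV5 at 3.91 against 7.88%. Among J genes, TRBJ1-2 stood at 12.0 against 5.99% and TRBJ1-1 at 7.74 against 12.4%, while TRBJ2-7 was at 20.8 and 18.98%. The genes of this paragraph were chosen after their values were seen. Contigs were counted and not clones, since a contig with no open CDR3 gives no clone. The cells of a clone can repeat the same contig, and such repeats were not taken out. The contigs are therefore not independent, and the part that expanded clones play in these differences was not tested.

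Trbv13-2 RNA was found in many cells that used another V gene, and its share differed with the place of that gene. Cells using a V gene between Trbv13-2 and the D and J genes had a Trbv13-2 UMI in 27.2% of cases, cells using a V gene on the far side in 8.85%. The share was 47.4% in TRBV13-3 cells, 41.2% in TRBV16 cells and 40.1% in TRBV14 cells, against 6.12% in TRBV12-2 cells and 5.19% in TRBV2 cells. In TRBV26 and TRBV29 cells, whose genes are among the nearest to the D and J genes, it was no more than 6.84 and 6.17%. Trbv12-2 showed the same with lower values, 10.8 against 3.76%, with 22.5% in cells using its neighbour TRBV13-2. Over the 16 Trbv genes with cells on both sides, 9 were higher on the nearer side, and the medians were 2.26 and 2.28%, so the difference by side was not seen across genes. The source of these UMIs was not tested.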
